A study of Mus musculus with 6 samples.

Results

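miR-143-3p (accession MIMAT0000247) and miR-145a-5p (MIMAT0000157) are 2 of the mature miRNAs of the miR-143 and miR-145 cluster, and the members followed here. They were taken by accession from a table of raw read counts for 707 mature miRNAs, and both of the 2 members were found. The libraries came from white adipose tissue (WAT) of male ApoE-deficient mice, which lack apolipoprotein E, a protein that clears lipoproteins from the blood. In the chronic intermittent hypoxia (CIH) group, 3 libraries came from mice whose inspired oxygen cycled between 21% and about 6% for 8 weeks, a model of the hypoxia of obstructive sleep apnea. The other 3 libraries came from the control group, which carried the same ApoE deficiency. The age of the mice and the WAT depot are not given in the sources used here, and the labels do not say whether each library came from its own mouse, so p-values measure only the spread between these libraries.

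The cluster is cut from 1 primary transcript, and it is best known from smooth muscle cells and other cells of mesenchymal origin. There, miR-145 represses factors such as KLF4 and KLF5 that hold smooth muscle cells in an immature, dividing state. In fat, miR-143 is known to promote the differentiation of preadipocytes into adipocytes, and in obese mice it has been linked to weaker insulin signalling. WAT holds adipocytes together with vessel walls, stromal cells and leukocytes, and in bulk tissue fewer cells of a type and less RNA per cell cannot be told apart.

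On the mouse build GRCm38, GENCODE release M21 places the hairpin Mir145a on chromosome 18 (61647825 to 61647894, minus strand) and the hairpin Mir143 at 61649196 to 61649258 on the same strand, with 1301 bases between them. Neither hairpin overlaps another gene in that annotation. Mir143 lies 366 bases from the noncoding gene Carmn (61649625 to 61665537), which is also on the minus strand. The RefSeq gene model of Carmn, which has Mir143hg as an older name, runs from 61645878 to 61665538 and spans both hairpins. A paralog hairpin, Mir145b, is annotated at 69022199 to 69022273. Whether reads of the paralog were counted as miR-145a-5p was not tested.

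miR-143-3p was the most abundant miRNA in 5 of the 6 libraries. It took 32.1%, 23.4% and 20.7% of the counts in control libraries 1, 2 and 3, with 438728, 1119994 and 164038 reads. In CIH libraries 1, 2 and 3 it took 34.9%, 9.59% and 20.7%, with 550366, 70698 and 132163 reads. The highest and the lowest share were thus both in the CIH group, and the 3 control libraries lay between them. In CIH 2, miR-143-3p ranked 3 among all miRNAs, where the most abundant miRNA was MIMAT0000516 with 25.0% of the counts. Its lead varied elsewhere too. In control 2 it stood level with the next miRNA, which had 1119320 reads, and in CIH 1 it had 2.23 times the reads of the next.

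miR-145a-5p was less abundant by more than an order of magnitude in every library. Its share was 0.466%, 0.437% and 0.450% of the counts in controls 1, 2 and 3, from 6360, 20926 and 3570 reads. Under CIH the share was 0.553%, 0.181% and 0.552%, in the same order, from 8719, 1332 and 3515 reads. The control shares lay close together, CIH 1 and CIH 3 lay above all of them, and CIH 2 lay below all of them. Among all miRNAs it ranked 24, 25 and 36 in controls 1 to 3, and it ranked 19, 58 and 26 under CIH. Counting error was small beside these differences. The 95% Wilson interval of its share in CIH 2 ran from 0.171% to 0.191%, and for miR-143-3p in CIH 2 it ran from 9.52% to 9.65%. These intervals cover counting error only, since reads amplified by PCR are not independent molecules.

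**Figure D1:**
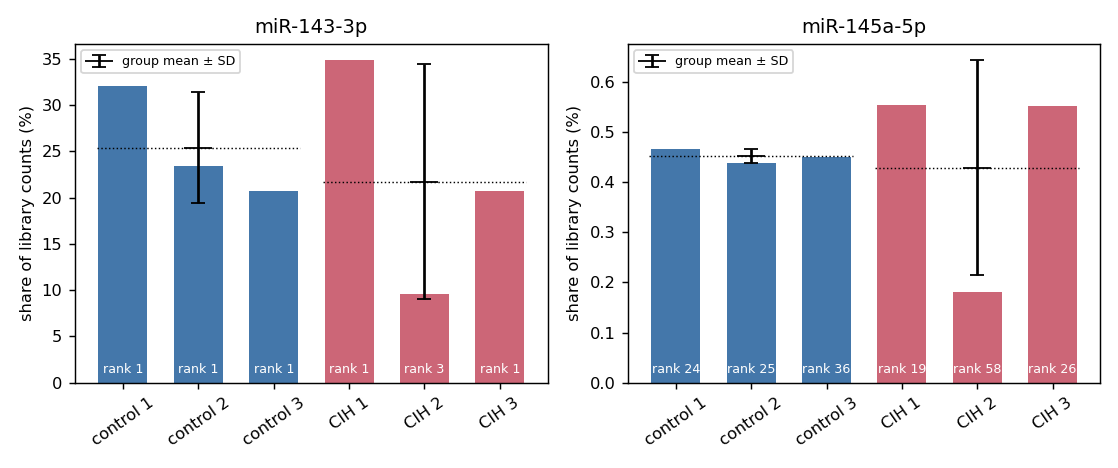
Share of all library counts (percent, vertical axis) taken by miR-143-3p and miR-145a-5p in the 3 control (blue) and 3 CIH (red) libraries, with the group mean and SD in black and the rank among all miRNAs at the foot of each bar. CIH 2 is the lowest library for both members, at 9.59% and 0.181%, and CIH 1 is the highest, at 34.9% and 0.553%.

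The shares, which scale each count by the library total and so depend on the other miRNAs of the library, were compared between the groups first. For miR-143-3p the mean share was 25.4% ± 5.97 (SD, n = 3) for controls, against 21.7% ± 12.7 (SD, n = 3) under CIH. The difference of -3.67 percentage points (standard error 8.09) was smaller than the spread between replicates (two-sided exact permutation test, p = 0.9, where 3 libraries against 3 allow no p under 0.1). For miR-145a-5p the means were 0.451% ± 0.0141 (SD, n = 3) and 0.428% ± 0.215 (SD, n = 3). This difference, -0.0228 percentage points (standard error 0.124), was also within the spread (same exact test, p = 1.0). With the log2 ratio described further on, 3 such tests were made, and each had a Benjamini-Hochberg adjusted p of 1.0. Single libraries moved both differences. For miR-143-3p the difference was -0.313 points without control 1 and -10.2 points without CIH 1. For miR-145a-5p it was -0.0849 points without CIH 1 and -0.0845 points without CIH 3. Without CIH 2 both turned, to 2.41 points for miR-143-3p (exact permutation p = 0.6) and 0.101 points for miR-145a-5p (exact permutation p = 0.1, the smallest possible), higher in the CIH group.

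Several features of the libraries bear on any comparison of levels. They held 636963 to 4783768 counts. Across the 633 miRNAs with at least 10 counts in all, the log2 levels of control 3 correlated with the 3 CIH libraries at 0.958 to 0.974, and with control 1 and control 2 at 0.595 and 0.661. Of the 204 miRNAs whose mean normalized level (TMM CPM, defined with the fit) reached 100, a set of 32 was nearly absent from control 1 and control 2, each lying there under 5% of its lowest level elsewhere. These 32, which were chosen after their values were seen, summed to at most 0.0245% of the counts in control 1 and control 2, and to between 15.97% and 29.9% in the other 4 libraries. The members were not among them. When these 32 were left out of the totals, the share of miR-145a-5p was 0.466%, 0.438% and 0.642% in controls 1 to 3, against 0.658%, 0.246% and 0.704% under CIH. The control shares then no longer lay close together, and the difference between the groups turned to 0.0209 percentage points, higher in the CIH group. The share of miR-143-3p became 32.1%, 23.4% and 29.5% in the control group, and 41.5%, 13.1% and 26.5% under CIH, with CIH 2 again the lowest. Because the table lists accessions without names, the markers of adipocytes, endothelium, leukocytes and other cell types were not analysed here, and their part in these differences was not tested.

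For the fit across all miRNAs, levels were expressed as CPM, counts scaled to a common library size, after TMM normalization (TMM CPM), which adjusts each library total for composition. The TMM factors ran from 0.575 in control 1 to 1.45 in CIH 3, so a TMM CPM value is not a share of the library. On this scale miR-143-3p was at 558194, 270215 and 147859 in controls 1 to 3, and at 441990, 76387 and 143347 under CIH. The group ranges overlapped, and control 3 lay beside CIH 3. The means were 325423 ± 210665 and 220575 ± 194652 TMM CPM (SD, n = 3 each). The level of miR-145a-5p was 8092, 5049 and 3218 TMM CPM in controls 1 to 3, and 7002, 1439 and 3812 TMM CPM under CIH, again with overlapping ranges. Its means were 5453 ± 2462 and 4085 ± 2791 TMM CPM (SD, n = 3 each).

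The study asked which miRNAs of WAT change under CIH, and neither member passed the test of that comparison. miR-143-3p had a log2 fold change of -0.56 (standard error 0.999, adjusted p = 0.889 by the quasi-likelihood test of edgeR). The 95% interval ran from -2.95 to 1.83, so that a level in the CIH group from 0.129 to 3.55 times that of the control group was compatible with these libraries. miR-145a-5p differed by -0.42 on the log2 scale in the same edgeR fit (standard error 0.80, adjusted p = 0.889), with an interval from -2.33 to 1.49, or 0.199 to 2.82 times. A p-value of this size does not show that the groups were alike, and the intervals hold changes of more than 2-fold in either direction. Of the 633 miRNAs tested, 0 (0%) had an adjusted p under 0.05 in this edgeR fit and 16 (2.53%) had an unadjusted p under 0.05. DESeq2 also gave 0 adjusted calls, with 26 unadjusted, and limma voom gave 0 with 75. The groups did not overlap for 51 miRNAs (8.06%), and both members lay outside that set. In absolute log2 fold change, 428 of the 633 miRNAs exceeded miR-143-3p and 475 exceeded miR-145a-5p.

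Over all miRNAs tested, the log2 fold change had a median of 0.07 with TMM factors, 0.33 with library totals and -0.52 with upper-quartile factors. Relative to that median, the log2 fold change of miR-143-3p was -0.63, -0.55 and -0.76 under the 3 scalings, and that of miR-145a-5p was -0.49, -0.40 and -0.59. Before this centring, upper-quartile factors gave -1.27 for miR-143-3p and -1.11 for miR-145a-5p, and library totals gave -0.23 and -0.07. Single libraries moved the estimates by similar amounts. Without control 1 they were 0.08 for miR-143-3p, a turn of direction, and -0.0022 for miR-145a-5p. Without CIH 1 they were -1.53 and -1.01, and without CIH 2 they were -0.16 and -0.02. Without control 3, the library that correlated with the CIH group, they were -0.93 and -0.70, with adjusted p-values of 0.519 and 0.521 from edgeR. In that fit 118 of the 614 miRNAs tested had an adjusted p under 0.05, and 102 of these were higher in the CIH group. The controls left were control 1 and control 2, from which the 32 miRNAs described above were nearly absent. Their part in this count was not tested.

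**Figure D2:**
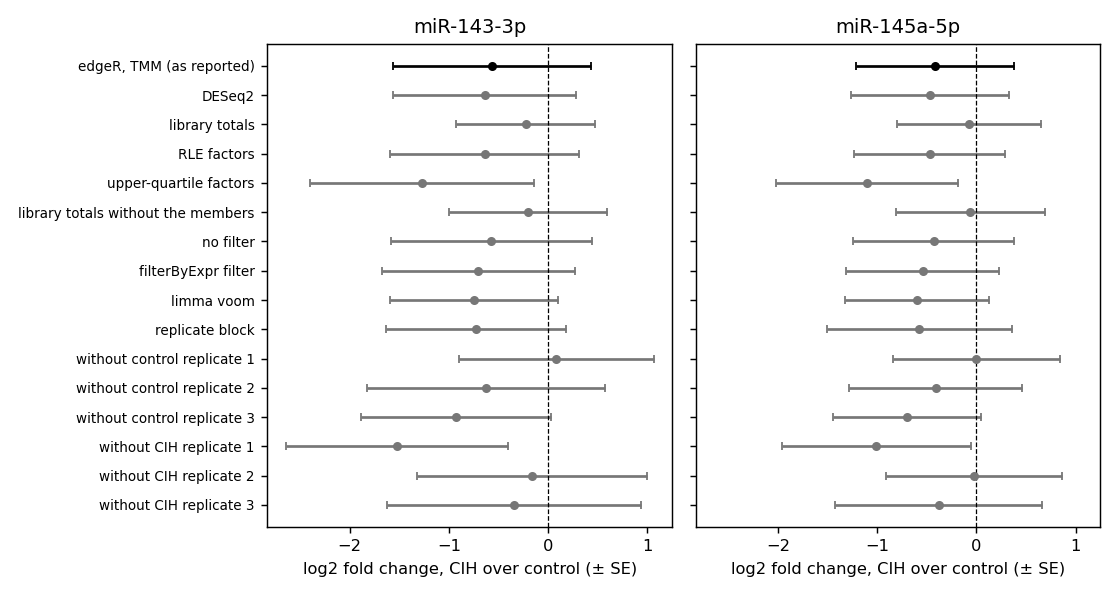
Log2 fold change of miR-143-3p and miR-145a-5p, CIH over control (horizontal axis, points with standard errors), as reported (top, black) and under each alternative normalization, filter, test or left-out library (grey), with the dashed line at no change. Points left of the line are lower in the CIH group. The value without control 1 is 0.08 for miR-143-3p, and the points farthest to the left are -1.53 for miR-143-3p without CIH 1 and -1.11 for miR-145a-5p with upper-quartile factors.

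The spread within the groups was itself uneven. Within the CIH group, miR-143-3p differed by 5.79-fold between its highest library (CIH 1) and its lowest (CIH 2) in TMM CPM, and miR-145a-5p by 4.87-fold between the same libraries. The coefficient of variation there was 88.2% for miR-143-3p and 68.3% for miR-145a-5p, against a median of 26.1% over the 204 miRNAs that reached a mean of 100 TMM CPM. Of these 204, 14 varied more than miR-143-3p and 21 more than miR-145a-5p within the CIH group. Within the control group the coefficients were 64.7% and 45.2%, under the median of 83.9%, and 128 and 159 miRNAs varied more. As shares of the library total the spread was smaller. Between CIH 1 and CIH 2 the share of miR-143-3p differed by 3.64-fold and that of miR-145a-5p by 3.06-fold, with coefficients of variation in the CIH group of 58.3% and 50.1% against a median of 32.6%. Of the 204 miRNAs, 25 and 38 varied more by this measure. Within the control group the shares had coefficients of 23.5% and 3.13% against a median of 84.0%, and 191 and 203 miRNAs varied more. These control values depend on the totals. Without the 32 miRNAs nearly absent from control 1 and control 2, the control shares of miR-145a-5p were 0.466%, 0.438% and 0.642%. Those 32 are also among the 204 behind the median. On both scales the members lay above the median spread within the CIH libraries and below it within the control libraries. Part of this contrast lies in the median, which was itself lower within the CIH group. The coefficients of the members were higher there on both scales. This is a description of 3 libraries a group, and the difference between the groups was not tested.

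The members moved together from library to library. In log2 TMM CPM, the deviation of miR-143-3p from its own mean was 1.36, 0.31 and -0.56 in controls 1 to 3, and 1.02, -1.51 and -0.61 under CIH. For miR-145a-5p the deviations were 0.97, 0.29 and -0.36 in the controls, and 0.76, -1.52 and -0.12 under CIH. Control 1 was the highest and CIH 2 the lowest for both, and only control 3 and CIH 3 changed places between them. Pearson's r between the members was 0.968 and Spearman's rho 0.943 over the 6 libraries. Without the libraries farthest from the median of miR-143-3p, control 1 and CIH 2, r was 0.974 over the remaining 4. All points share the scaling of their library, which moves every miRNA of that library together. With library totals in place of TMM factors, r was 0.881.

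By Pearson's r, each member was the closest match of the other. Among the 203 other miRNAs that reached this mean level, miR-145a-5p had the highest r to miR-143-3p, and miR-143-3p had the highest r to miR-145a-5p. By Spearman's rho this was not so, since MIMAT0004534 reached 1.0 with miR-143-3p and MIMAT0000126 equalled the 0.943 of the members. With miR-145a-5p, MIMAT0004534 and a further miRNA also equalled it. Spearman's rho was looked at only for the miRNAs closest in Pearson's r, so other ties or higher values were not searched for. The median r to miR-143-3p over the 203 was 0.0042. The next most alike was MIMAT0000126 for miR-143-3p (r = 0.919) and MIMAT0004534 for miR-145a-5p (r = 0.901), and MIMAT0004534 also stood at 0.911 with miR-143-3p. With library totals, these 3 values were 0.0841, 0.636 and 0.392, while the members were still first for each other, ahead of 0.690 for the next miRNA to miR-143-3p and 0.636 for the next to miR-145a-5p.

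The ratio of the members within a library does not depend on the library size or its scaling. The libraries held 69.0, 53.5 and 45.9 reads of miR-143-3p per read of miR-145a-5p in the control group, and 63.1, 53.1 and 37.6 in the CIH group. The groups overlapped. Control 2 and CIH 2 were nearly level in the ratio, while the share of miR-143-3p was 23.4% in one and 9.59% in the other. By counting error alone, the ratio in CIH 3 lay between 36.4 and 38.9 and that in control 1 between 67.3 and 70.7 (95% Wilson intervals), so these libraries differed by more than their counts allow. The mean log2 ratio was 5.79 ± 0.30 (SD, n = 3) for controls, against 5.65 ± 0.38 (SD, n = 3) under CIH. The difference of -0.14 (standard error 0.28) was within the spread between replicates (two-sided exact permutation test, p = 0.6, smallest possible 0.1). It turned to 0.015 without control 1 and to 0.064 without CIH 3, and was -0.31 without CIH 1.

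**Figure D3:**
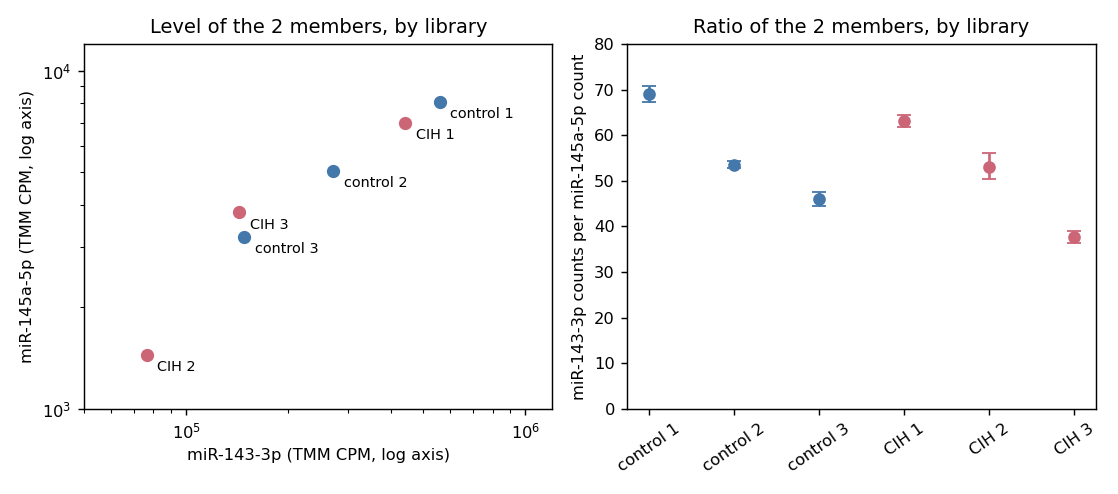
Left, level of miR-145a-5p against miR-143-3p in each library (TMM CPM, both axes logarithmic), and right, reads of miR-143-3p per read of miR-145a-5p in each library with 95% Wilson intervals, for control (blue) and CIH (red) libraries. CIH 2 is lowest and control 1 highest for both members, and the ratio stays between 37.6 and 69.0 in both groups.

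Pooled over both groups, the ratio varied less than the levels. Its SD within groups was 0.34 on the log2 scale, against 1.13 for the TMM CPM of miR-143-3p and 0.94 for that of miR-145a-5p, and against 0.70 and 0.66 for their shares. Over the 6 libraries, the highest and the lowest ratio were 0.88 log2 units apart, the TMM CPM 2.87 and 2.49 units, and the shares 1.86 and 1.61 units. Within the control group alone, this did not hold for the share of miR-145a-5p. There the ratio had a coefficient of variation of 20.9%, against 23.5% for the share of miR-143-3p and 3.13% for that of miR-145a-5p. Both shares were taken with all miRNAs in the totals. Taken against each of the 203 other miRNAs, the log2 ratio of miR-143-3p had its smallest SD over the 6 libraries with miR-145a-5p (0.31), followed by 0.53 for the next miRNA, with a median of 1.48. The same measure for miR-145a-5p was also smallest with miR-143-3p, ahead of 0.47 for the next miRNA and a median of 1.32. In CIH 2, where both shares were at their lowest, 53.1 reads of miR-143-3p were counted per read of miR-145a-5p, inside the range of the other 5 libraries.

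**Figure D4:**
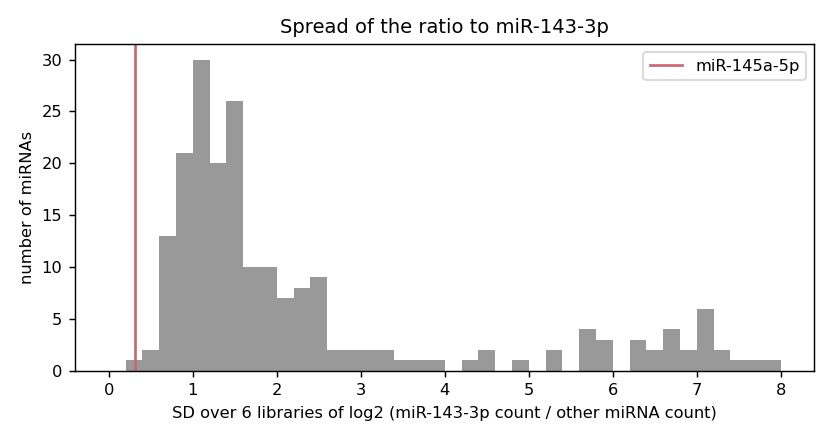
Number of miRNAs (vertical axis) by the SD over the 6 libraries of the log2 ratio of miR-143-3p counts to their own counts (horizontal axis, log2 units), for the 203 other miRNAs that reached a mean of 100 TMM CPM. The line at 0.31 marks miR-145a-5p, the smallest value, and the median is 1.48.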

How the data were processed

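Small RNA libraries from WAT, 3 of the CIH and 3 of the control group, were sequenced by the authors, who deposited raw read counts for 707 mature miRNAs, listed by accession. Trimming, aligner, miRNA database release and the treatment of multi-mapping reads are not given in the sources used here, and could move reads between similar miRNAs. Libraries were assigned to groups by their titles and to columns by their library names. No pair of libraries agreed within counting noise. The members and the lists were chosen with earlier results of these data known.

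The 633 miRNAs with at least 10 counts over the 6 libraries entered a quasi-likelihood test in edgeR 4.0.16 under R 4.3.3 (TMM factors, a group term alone, Benjamini-Hochberg adjustment), after the script was tested on simulated data. The pass mark was the recovery of large changes at a smaller spread between libraries than seen here. It does not show how well changes would be detected at the observed spread. Standard errors were derived from the log2 fold change and the F statistic. Alternatives used DESeq2 1.42.0, limma 3.58.1 with voom, other scalings and filters, the replicate number as a block, and each library left out. Log2 levels used a prior count of 2 and ratios a pseudocount of 0.5. Shares and ratios were compared by two-sided exact permutation tests in Python 3.11.15 (numpy 2.4.6, scipy 1.17.1, pandas 2.3.3). The rule for the miRNAs named took the members, the miRNAs most alike to each in Pearson's r, and the most abundant. At most the closest 2 per member are named by accession, since no table used here pairs accessions with names. The other arms of the hairpins and the lists of stromal, adipogenic and cell type miRNAs were not analysed here for that reason.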

Additional observations from a re-analysis of the deposited data

How the results depend on the processing

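Neither member had an adjusted p under 0.05 in any of the 15 alternatives, where edgeR, DESeq2 or limma gave adjusted p-values of 0.519 to 0.975 for miR-143-3p and 0.521 to 0.999 for miR-145a-5p. Their log2 fold changes were -1.27 to -0.20 and -1.11 to -0.06 in the 9 alternatives that kept all libraries. Leaving out single libraries gave -1.53 to 0.083 (without control 1) and -1.01 to -0.0022. For adjusted calls over all miRNAs it gave 0 to 118 (without control 3, of 614 tested), and all other alternatives gave 0. The 16 miRNAs with an unadjusted p under 0.05 became 26 with DESeq2, 39 with upper-quartile factors, 8 with the filterByExpr filter, which tests 407 miRNAs, 75 with limma voom, 3 with the replicate block, and 1 (without CIH 3) to 225 (without control 3) with single libraries left out. The difference in log2 ratio was then -0.31 to 0.064, turning without control 1 (0.015) and CIH 3 (0.064). The difference in share was -10.2 to 2.41 points for miR-143-3p and -0.0849 to 0.101 for miR-145a-5p, both turning without CIH 2. The latter also turned, to 0.0209, with 32 miRNAs left out of the totals, an alternative chosen after seeing the data. Between the members, r was 0.881 with library totals, Spearman's rho 0.943, and r 0.960 to 0.989 with single libraries left out. Apart from the fewer miRNAs or libraries, the cause was not tested.

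Replicate numbers are shared between the groups in the labels. After each group mean was subtracted for each miRNA, same-numbered libraries correlated at 0.353, -0.116 and 0.0195 for numbers 1, 2 and 3. Libraries with different numbers were not compared in this way, so these values do not decide on a pairing. The main fit left the libraries unpaired, since the study describes an unpaired comparison. With a replicate block in edgeR, the log2 fold changes were -0.72 (adjusted p = 0.924) and -0.58 (adjusted p = 0.942), and the log2 ratio differed by -0.14 (exact sign-flip test, p = 0.25, the smallest possible). The other hairpin arms were not run, because no table used here pairs accessions with names.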
